A study of Mus musculus with 6 samples.

Results

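Cytochrome P450 genes were taken by symbol from a ChIP-chip study of Rybp in mouse embryonic stem (ES) cells: every gene whose symbol in the annotation of the Dnmt1-KO arrays is Cyp followed by digits, a letter and digits. The rule found 67 of 16908 gene symbols, covered by 1277 of 474380 probes, and used no measured value. A further 7 symbols that begin with Cyp did not meet it; Cyp51 and Cyp4a12b among them are P450 genes, and the other 5 are the Cypt genes Cypt2, Cypt3, Cypt4, Cypt6 and Cypt9, which are not. Of the 67 genes, 56 had a run of 6 neighbouring probes within 3 kb and could be given a level, among 16332 such promoters in all. The remaining 11 had 1 to 7 probes each and are described at the end.

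Chromatin of 3 genotypes was compared: Eed-KO ES cells, which lack Eed, a core subunit of the Polycomb repressive complex that methylates histone H3; Dnmt1-KO ES cells, which lack the maintenance DNA methyltransferase; and wild-type (WT) ES cells. The labels give neither the knockout alleles nor the number of lines or cultures, and name the genotypes only as Eed-KO, Dnmt1-KO and WT. The cells were grown with serum and ESGRO on irradiated embryonic fibroblasts or on gelatin, with no statement of which culture had fibroblasts. DNA precipitated with a Rybp antibody (IP, red) and input DNA (green) were hybridised together on a 2-array promoter set, so that each promoter had 1 array per genotype, and no p-value could be given.

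P450s are haem enzymes that use electrons from a reductase to insert oxygen into small lipophilic molecules. Some members make or break down signalling molecules such as retinoic acid, active vitamin D, steroid hormones and bile acids, whereas the large families 2, 3 and 4 mainly oxidise foreign compounds and fatty acids in liver, intestine and kidney. Rybp is a ubiquitin-binding protein of non-canonical Polycomb complexes, which mark the chromatin of many silent developmental genes in ES cells by ubiquitinating histone H2A.

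The level of a promoter is the mean, over its 6-probe run with the highest mean over the 3 genotypes, of log2(IP/input) after each array's median was set to 0. A level of at least 1, which is 2-fold, was called bound. A difference from WT was called at a size of 1 or more, and only where the promoter was bound in that knockout or in WT. Each level is given with its SD and each difference with its SE across the 6 probes of the run; both measure scatter among probes alone, since each promoter was hybridised once per genotype. The log ratios had an SD over all probes of 0.41 to 0.47 on the Eed-KO and WT arrays, and of 0.91 and 0.96 on the Dnmt1-KO arrays. The Dnmt1-KO arrays were also read with another scanner model and extraction version. Their flag for a probe well above background used a multiplier of 13, against 2.6 on the other arrays. Genotype and scan can thus not be told apart in that comparison. Levels were therefore also computed with the 3 arrays of a design set to 1 common spread, their mean median absolute deviation, which is called the common scale below.

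With log ratios as measured, the P450 promoters bound in Eed-KO or WT cells were those of the 3 vitamin D enzymes, Cyp26a1 and Cyp1b1, and others joined them on the common scale. Of 56 P450 promoters, 5 were bound in Eed-KO (8.93%, against 5.76% of all promoters), 10 in Dnmt1-KO (17.9%, against 46.0%) and 4 in WT (7.14%, against 5.15%). The shares in Eed-KO and WT lay near those of all promoters, whereas the share in Dnmt1-KO lay well below. On the common scale the counts were 6 in Eed-KO (background 11.6%), 5 in Dnmt1-KO (21.7%) and 7 in WT (14.8%). On that scale Cyp46a1 was also bound in Eed-KO, at 1.155. In WT so were Cyp4v3 at 1.355, Cyp7b1 at 1.231 and Cyp46a1 at 1.103. As measured, Cyp26a1, Cyp1b1, Cyp24a1 and Cyp2r1 were bound in all 3 genotypes, and Cyp27b1 in both knockouts. In Dnmt1-KO the bound promoters also held Cyp46a1, Cyp7b1, Cyp4v3, Cyp2d22 and Cyp2s1. Near the threshold lay Cyp27b1 at 1.04 and Cyp46a1 at 0.90 in Eed-KO, Cyp2s1 at 1.10 and Cyp27a1 at 0.92 in Dnmt1-KO, and Cyp1b1 at 1.18 and Cyp4v3 at 0.93 in WT.

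**Figure D1:**
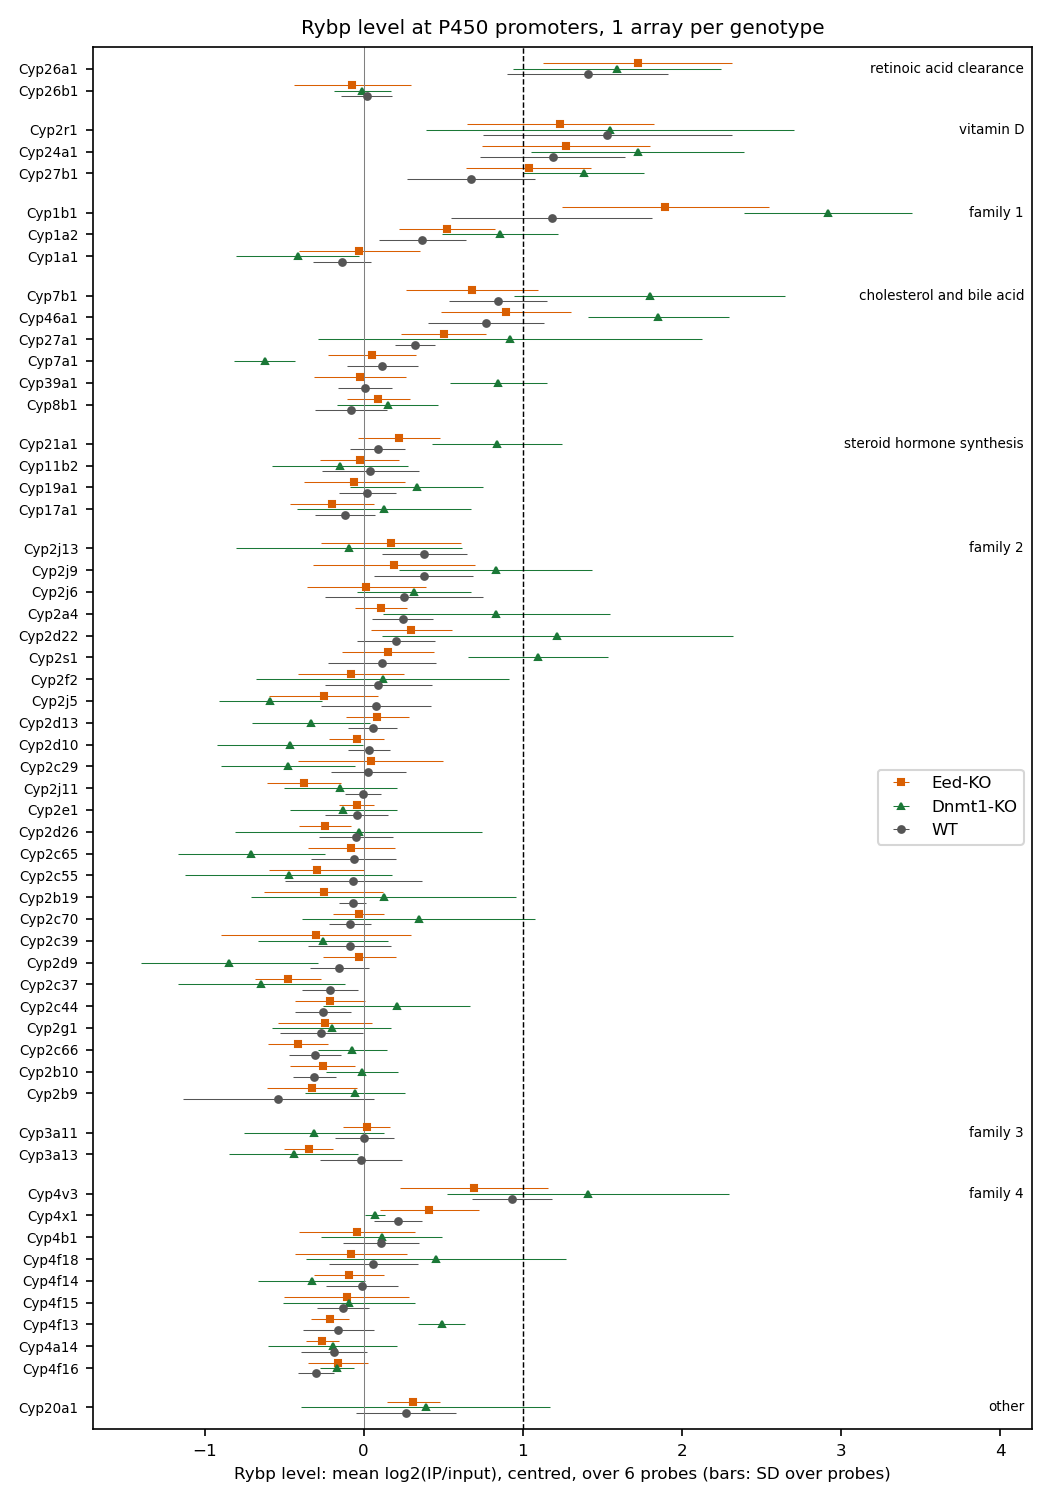
Rybp level (mean centred log2 of IP over input across 6 probes) of the 56 P450 promoters by role, with bars for the SD over probes and a dashed line at the bound level of 1; squares are Eed-KO, triangles Dnmt1-KO and circles WT. The 3 vitamin D genes, Cyp26a1 and Cyp1b1 stand at the right, and families 2, 3 and 4 lie mostly around 0.

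The level of the typical P450 promoter, taken at its highest run, lay near the centre of the array in every genotype. By that choice, no other such run of the promoter had a higher mean over the 3 genotypes. A level near 0 therefore does not place the whole promoter at the array centre. The median level of the 56 was -0.03 in Eed-KO, against 0.21 for all promoters. It was 0.09 in Dnmt1-KO, against 0.92, and 0.03 in WT, against 0.27. The range over the members ran from -0.47 to 1.90 in Eed-KO, from -0.84 to 2.92 in Dnmt1-KO and from -0.54 to 1.53 in WT. P450 promoters were poor in CpG, the dinucleotide that Dnmt1 keeps methylated: their runs had a median of 0.60 CpG in 100 probe bases, where all promoters had 2.47.

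Examples of bases upstream of a start, chosen as bound and not bound paralogs, are given first. The pairs of paralogs are Cyp26a1 (bound) and Cyp26b1 (not bound), and Cyp1b1 (bound) and Cyp1a1 (run not bound in any genotype). Each gene is printed below as the 250 bases before the RefSeq start (GRCm38.p6, on the gene's strand), with CpG in capitals. The Cyp1a1 call is that of a run centred at -2371.5 bp from the annotated start. Its 1 probe within 1 kb lies more than 250 bases from that start. Rybp over the 250 bases before the Cyp1a1 start was thus not measured. The 250-base stretches lie at chr19:37697558-37697807 (plus strand, Cyp26a1), chr6:84593811-84594060 (minus strand, Cyp26b1), chr17:79715062-79715311 (minus strand, Cyp1b1) and chr9:57697363-57697612 (plus strand, Cyp1a1).
Cyp26a1: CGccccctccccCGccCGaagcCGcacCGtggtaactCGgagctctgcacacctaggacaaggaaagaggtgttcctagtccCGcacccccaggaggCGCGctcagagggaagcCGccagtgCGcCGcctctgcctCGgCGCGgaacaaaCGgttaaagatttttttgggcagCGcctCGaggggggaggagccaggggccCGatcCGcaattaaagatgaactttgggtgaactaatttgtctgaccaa
Cyp26b1: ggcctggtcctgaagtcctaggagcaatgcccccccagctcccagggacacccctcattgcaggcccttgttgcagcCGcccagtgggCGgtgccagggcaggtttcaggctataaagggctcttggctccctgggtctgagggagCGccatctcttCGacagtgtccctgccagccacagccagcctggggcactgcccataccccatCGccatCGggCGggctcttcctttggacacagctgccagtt
Cyp1b1: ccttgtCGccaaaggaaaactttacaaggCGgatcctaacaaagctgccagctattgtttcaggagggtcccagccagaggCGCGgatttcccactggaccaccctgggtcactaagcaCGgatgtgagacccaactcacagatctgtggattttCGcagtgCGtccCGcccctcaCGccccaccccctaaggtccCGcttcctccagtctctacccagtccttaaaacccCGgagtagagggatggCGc
Cyp1a1: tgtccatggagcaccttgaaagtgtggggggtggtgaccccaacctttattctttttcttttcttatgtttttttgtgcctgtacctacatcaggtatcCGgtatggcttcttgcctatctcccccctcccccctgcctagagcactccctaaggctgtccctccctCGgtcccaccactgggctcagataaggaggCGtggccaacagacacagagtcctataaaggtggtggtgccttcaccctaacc
Cyp26a1 held 20 CpG in this stretch, and 17.9% of the 32851 promoters in the RefSeq table hold at least as many. Cyp26b1 held 7 (46.3% hold as many), Cyp1b1 held 12 (33.5%) and Cyp1a1 held 3 (71%). The table matched 51 of the 67 members, whose median was 2 CpG in 250 bases, against 6 over the table. Cyp26b1, though not bound, was thus above that table median, and CpG counts in this stretch overlapped between bound and other members. The 7 members with a run and 12 or more CpG were Cyp46a1 (23), Cyp26a1 (20), Cyp4v3 (17), Cyp2r1 (16), Cyp2s1 (15), Cyp20a1 (15) and Cyp1b1 (12). Of them 3 were bound in Eed-KO or WT and 6 in Dnmt1-KO, and Cyp20a1 was bound in no genotype. Of all promoters 5.76% were bound in Eed-KO, 46.0% in Dnmt1-KO and 5.15% in WT. The bound share of all promoters with 12 or more CpG in this stretch was not computed, so the 7 are a description alone. Cyp27b1, bound in both knockouts, held 1, although its run, which lies inside the gene, had 4.23 CpG per 100 bases of probe. The letters CG were counted in the window as printed, and the count is a description of these bases alone.

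Across the members, the level was higher in runs with more CpG. Pearson's r was 0.75 in Eed-KO, 0.69 in Dnmt1-KO and 0.67 in WT over the 56 P450 promoters, and 0.33 in Eed-KO, 0.57 in Dnmt1-KO and 0.45 in WT over all 16332. Spearman's rho over the members was 0.69 in Eed-KO, 0.59 in Dnmt1-KO and 0.51 in WT. The promoters of a genotype share 2 arrays and their dye and base-composition effects, so these values describe the arrays and carry no p-value. Only 11 of the 56 P450 runs reached the median CpG content of all promoters. Among those 11, 5 were bound in Eed-KO, 7 in Dnmt1-KO and 4 in WT, where the bound share of all promoters of that CpG class was 8.64% in Eed-KO, 68.2% in Dnmt1-KO and 7.84% in WT. Among the 45 below it, 0 were bound in Eed-KO, 3 in Dnmt1-KO and 0 in WT, where the bound share of that class was 2.87% in Eed-KO, 23.9% in Dnmt1-KO and 2.45% in WT. The 3 were Cyp46a1, Cyp7b1 and Cyp2d22.

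**Figure D2:**
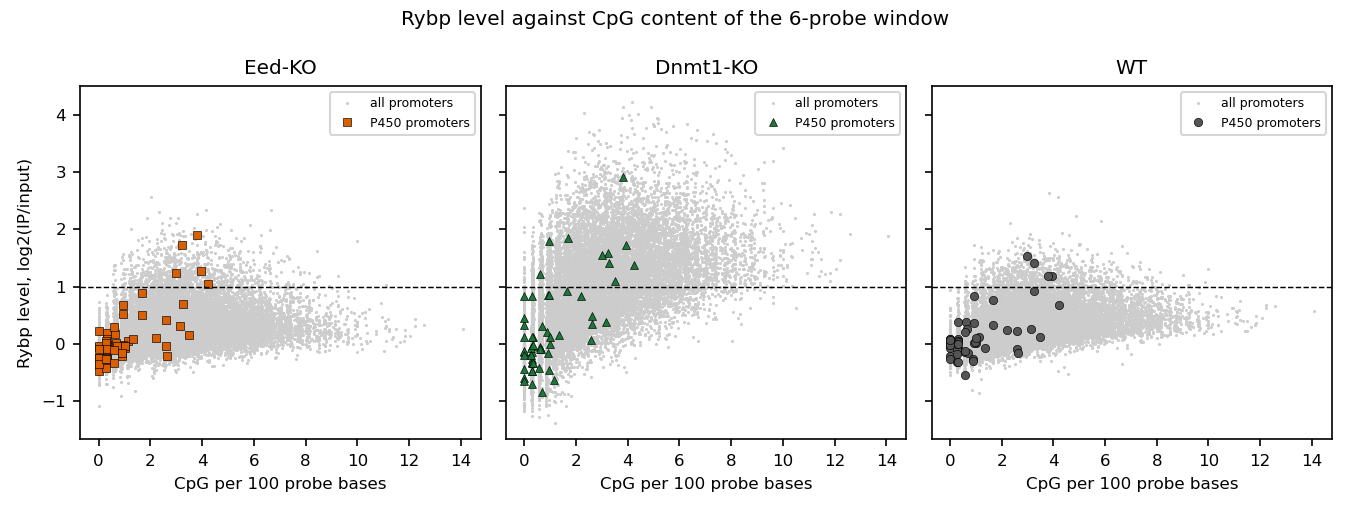
Rybp level (centred log2 of IP over input) against CpG per 100 probe bases of the 6-probe run, in Eed-KO, Dnmt1-KO and WT; coloured symbols are the 56 P450 promoters, grey points all promoters, and the dashed line is the bound level. Most P450 promoters lie at the left, and those bound in Eed-KO and WT lie between 2.99 and 4.23 CpG per 100 bases.

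The probes below are examples of the DNA on the arrays before the start, for the 5 genes bound in Eed-KO or WT, for Cyp26b1, and for Cyp2c29 and Cyp3a11 as liver drug-metabolism genes. Each is the probe with the highest mean over genotypes among those lying 60 to 1000 bp before the start, as the array files give it (strand not stated), with CpG in capitals. Of these 8 probes, 2, those of Cyp2r1 and Cyp3a11, belong to the 6-probe run that gives the gene its level, and the others lie outside it.
Cyp26a1: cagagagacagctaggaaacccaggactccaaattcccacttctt
Cyp1b1: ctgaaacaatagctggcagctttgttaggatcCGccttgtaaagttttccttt
Cyp24a1: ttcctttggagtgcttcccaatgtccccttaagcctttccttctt
Cyp2r1: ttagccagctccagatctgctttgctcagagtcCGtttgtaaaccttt
Cyp27b1: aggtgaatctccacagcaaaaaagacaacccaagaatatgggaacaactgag
Cyp26b1: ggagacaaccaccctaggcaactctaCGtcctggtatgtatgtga
Cyp2c29: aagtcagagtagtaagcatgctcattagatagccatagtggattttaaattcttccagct
Cyp3a11: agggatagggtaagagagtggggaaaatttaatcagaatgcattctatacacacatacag
The Cyp26a1 probe, 346 bp before the start, read 1.43 in Eed-KO, 1.77 in Dnmt1-KO and 1.33 in WT. A nearer Cyp26a1 probe, at 58 bp, read higher in Eed-KO, at 2.33, with 1.62 in Dnmt1-KO and 1.22 in WT. The lower limit of 60 bp was set after these values were seen, because that probe runs 17 bases past the RefSeq start, and without the limit it would have been the one printed. The Cyp26b1 probe at 354 bp read 0.23 in Eed-KO, 0.19 in Dnmt1-KO and 0.42 in WT. The Cyp2r1 probe at 160 bp read 1.04 in Eed-KO, 3.50 in Dnmt1-KO and 1.49 in WT, and the Cyp24a1 probe at 812 bp read 1.43 in Eed-KO, 2.60 in Dnmt1-KO and 0.88 in WT. The Cyp1b1 probe at 234 bp read 0.70 in Eed-KO, 1.34 in Dnmt1-KO and 1.47 in WT, and the Cyp27b1 probe at 407 bp read 0.86 in Eed-KO, 0.27 in Dnmt1-KO and 0.72 in WT. Cyp2c29 and Cyp3a11 had no probe at 1 or more in any genotype. The printed Cyp2c29 probe, at 915 bp, read -0.12 in Eed-KO, 0.47 in Dnmt1-KO and -0.12 in WT. The printed Cyp3a11 probe, at 676 bp, read -0.07 in Eed-KO, 0.29 in Dnmt1-KO and -0.08 in WT.

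Of the retinoic acid clearing enzymes, which oxidise all-trans retinoic acid and so limit its signal, Cyp26a1 was bound in every genotype, with the second highest level of the members in Eed-KO and in WT, and Cyp26b1 was not bound in any. The Cyp26a1 level was 1.72 ± 0.59 in Eed-KO, 1.59 ± 0.65 in Dnmt1-KO and 1.41 ± 0.51 in WT (SD over 6 probes), at chr19:37763770-37764853 in the coordinates of the array annotation, for which the files name no build. The run lies inside the gene, centred 1253 bp after the annotated start. The signal was broad: 23 of 44 Cyp26a1 probes, which reach from 5376 bp before to 2496 bp after the start, were at 1 or more in Eed-KO, 26 in Dnmt1-KO and 14 in WT. In Eed-KO all 6 probes of the run were higher than in WT, by 0.32 ± 0.08 (SE), below the called size of 1. In Dnmt1-KO the difference was 0.18 ± 0.18, with 4 probes higher and 2 lower, and on the common scale it was -0.97.

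Cyp26b1 had levels of -0.07 ± 0.37 in Eed-KO, -0.01 ± 0.18 in Dnmt1-KO and 0.02 ± 0.16 in WT, and none of its 44 probes reached 1 in any genotype. Its run lies far upstream, centred 4215 bp before the start. Nearer the start the Dnmt1-KO array read lower: the 11 probes within 1 kb averaged -0.05 in Eed-KO, -0.48 in Dnmt1-KO and -0.02 in WT. Over all its probes 1 of 44 was at -1 or less in Eed-KO, 12 in Dnmt1-KO, with the lowest at -2.52, and 0 in WT. Of all probes on the arrays, the share at -1 or less was 0.882% in Eed-KO, 9.33% in Dnmt1-KO and 0.419% in WT. Of the 12, 10 were well above background in the IP channel.

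Of the 3 vitamin D enzymes, 3 were bound in Eed-KO (5.76% of all promoters), 3 in Dnmt1-KO (46.0%) and 2 in WT (5.15%). Cyp2r1, which makes the circulating form of vitamin D in liver, had the highest WT level of all members, with 1.24 ± 0.59 in Eed-KO, 1.55 ± 1.16 in Dnmt1-KO and 1.53 ± 0.78 in WT (chr7:114353454-114354337, across the start). It was lower in Eed-KO than in WT in 5 of 6 probes, with a difference of -0.29 ± 0.11. In Dnmt1-KO the 6 probes ranged widely, from 0.27 to 3.50, against 0.05 to 2.38 in WT, and the mean difference was 0.02 ± 0.43. On the common scale Cyp2r1 was the 1 member called lower in Dnmt1-KO, with a difference of -1.26, where 0.478% of all promoters were called lower.

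Cyp24a1, which inactivates active vitamin D and is a classic target of its receptor, had 1.27 ± 0.53 in Eed-KO, 1.72 ± 0.67 in Dnmt1-KO and 1.19 ± 0.45 in WT (chr2:170187798-170188736). The run was centred on the start, and its probes were split, 3 higher and 3 lower, between Eed-KO and WT. Cyp27b1, which makes active vitamin D in the kidney, had 1.04 ± 0.39 in Eed-KO, 1.38 ± 0.38 in Dnmt1-KO and 0.67 ± 0.40 in WT (chr10:126451967-126452878, inside the gene). All 6 Cyp27b1 probes were higher in Eed-KO than in WT, by 0.37 ± 0.10. In Dnmt1-KO 5 of 6 were higher, by 0.71 ± 0.20, and on the common scale the difference was -0.06. The Eed-KO calls of Cyp24a1 and Cyp27b1 were lost with normexp background correction and with the trend on probe GC content removed.

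**Figure D3:**
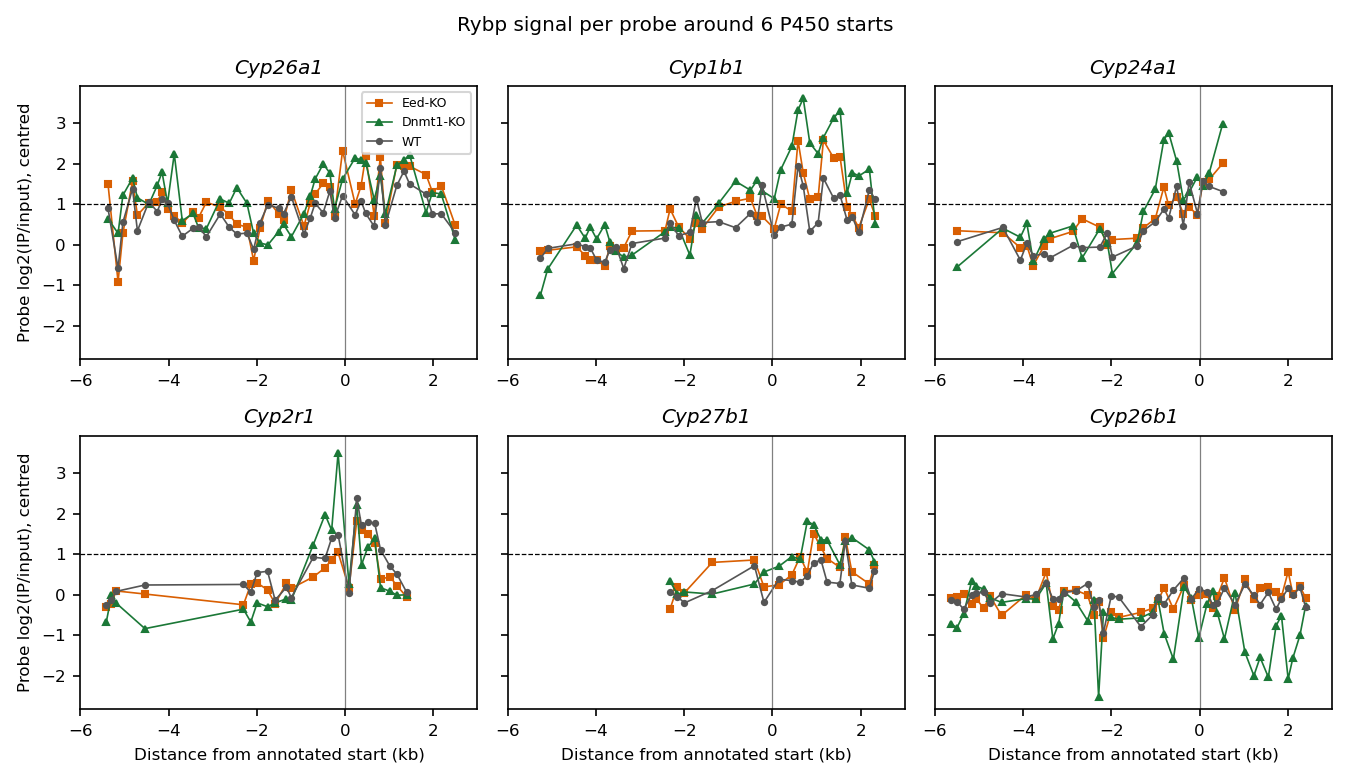
Centred log2 of IP over input per probe against distance from the annotated start in kb for 6 P450 genes, with squares for Eed-KO, triangles for Dnmt1-KO and circles for WT, and dashed lines at 1. All 5 bound genes have probes above 1 around or after the start, whereas Cyp26b1 has no probe at 1 and has negative Dnmt1-KO values after the start.

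Family 1 holds the enzymes induced through the Ah receptor, which detects dioxins and other planar aromatics. Cyp1b1, an extrahepatic enzyme that oxidises oestradiol and polycyclic hydrocarbons, had the highest level of all members in both knockouts, with 1.90 ± 0.65 in Eed-KO and 2.92 ± 0.53 in Dnmt1-KO, against 1.18 ± 0.63 in WT (chr17:79621954-79622816, inside the gene). Its 6 probes ranged from 1.13 to 2.58 in Eed-KO and from 2.25 to 3.62 in Dnmt1-KO, against 0.33 to 1.95 in WT. Every probe was higher in Eed-KO, by 0.71 ± 0.10, the largest difference of any member in that comparison. Every probe was higher in Dnmt1-KO too, by 1.74 ± 0.19, but on the common scale that difference was 0.22, while the Eed-KO difference was 0.75. The input signal of Eed-KO over WT within 5 Mb on either side of Cyp1b1 had a median of 0.75 (log2), and at the run itself it was 0.50. The median difference in the IP/input ratio over the same region was 0.01. For Dnmt1-KO over WT the input signal at the run was 3.17 (log2) and the IP signal 4.88, and the median input within 5 Mb was 0.35. The part of the higher input in either Cyp1b1 difference was not tested.

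Neither Cyp1a2, a liver enzyme, nor Cyp1a1, its neighbour in the genome and the most used marker of Ah receptor activation, was bound. Cyp1a2 had 0.52 ± 0.30 in Eed-KO, 0.86 ± 0.37 in Dnmt1-KO and 0.37 ± 0.27 in WT. Cyp1a1 had -0.03 ± 0.38 in Eed-KO, -0.41 ± 0.39 in Dnmt1-KO and -0.14 ± 0.18 in WT. The Cyp1a1 run lies upstream, and only 1 probe lay within 1 kb of the start, so Rybp at the Cyp1a1 start was not measured.

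Of the 6 cholesterol and bile acid enzymes, 0 were bound in Eed-KO (5.76% of all promoters), 2 in Dnmt1-KO (46.0%) and 0 in WT (5.15%), counts too small to set apart from those shares. Cyp46a1, the neuronal enzyme that makes the brain's exported oxysterol, had 0.90 ± 0.41 in Eed-KO, 1.85 ± 0.45 in Dnmt1-KO and 0.77 ± 0.36 in WT, and all 6 probes were higher in Dnmt1-KO, by 1.08 ± 0.16. Cyp7b1, an oxysterol hydroxylase, had 0.68 ± 0.41 in Eed-KO, 1.80 ± 0.85 in Dnmt1-KO and 0.84 ± 0.31 in WT, with a Dnmt1-KO difference of 0.95 ± 0.26 in 6 of 6 probes. On the common scale these differences were 0.11 and -0.10. Cyp7a1, the rate-limiting enzyme of bile acid synthesis, was on the other side, with 0.05 ± 0.28 in Eed-KO, -0.62 ± 0.19 in Dnmt1-KO and 0.12 ± 0.22 in WT. All 6 Cyp7a1 probes were lower in Dnmt1-KO, with a difference of -0.74 ± 0.12, the lowest difference of any member as measured. On the common scale Cyp7a1 was at -0.39 in Dnmt1-KO and 0.17 in WT, and the lowest difference was that of Cyp2r1, at -1.26. Only 1 of the 6 Cyp7a1 probes was flagged well above background in the Dnmt1-KO IP channel, where the flag used the higher multiplier. A promoter with such a low level in both genotypes was not eligible for a call.
The other members of the group were Cyp27a1, which oxidises sterol side chains in mitochondria, Cyp39a1, an oxysterol hydroxylase, and Cyp8b1, which sets the cholic acid share of bile. Cyp27a1 had 0.50 in Eed-KO, 0.92 in Dnmt1-KO and 0.32 in WT. Cyp39a1 had -0.02 in Eed-KO, 0.85 in Dnmt1-KO and 0.01 in WT, with all 6 probes higher in Dnmt1-KO. Cyp8b1 had 0.09 in Eed-KO, 0.15 in Dnmt1-KO and -0.08 in WT.

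None of the 4 steroid hormone enzymes with a run was bound in any genotype. Of all promoters, 5.76% were bound in Eed-KO, 46.0% in Dnmt1-KO and 5.15% in WT, and a count of 4 is too small to set apart from those shares. The 4 enzymes were Cyp21a1 and Cyp11b2, of adrenal corticosteroid synthesis, Cyp17a1, needed for androgens, and Cyp19a1, the aromatase that makes oestrogens. Their levels ran from -0.20 to 0.22 in Eed-KO, from -0.15 to 0.84 in Dnmt1-KO and from -0.12 to 0.09 in WT. Cyp21a1 was the highest in Dnmt1-KO, with 0.84 ± 0.41 there, 0.22 ± 0.26 in Eed-KO and 0.09 ± 0.17 in WT.

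Families 2, 3 and 4, without Cyp2r1, made up 37 of the 56 promoters, and 0 were bound in Eed-KO (5.76% of all promoters, and 2.87% of those below the median CpG content) or in WT (5.15% and 2.45%). At those shares few of 37 would be bound, and the count of 0 is near the background. The 26 family 2 promoters ran from -0.47 to 0.30 in Eed-KO, from -0.84 to 1.22 in Dnmt1-KO and from -0.54 to 0.38 in WT. In Dnmt1-KO 2 of the 26 were bound, against 46.0% of all promoters and 23.9% of those below the median CpG content. The 2 were Cyp2d22, with 1.22 ± 1.10 in Dnmt1-KO, 0.30 ± 0.26 in Eed-KO and 0.20 ± 0.25 in WT, and Cyp2s1, an extrahepatic enzyme. Cyp2s1 had 1.10 ± 0.44 in Dnmt1-KO, 0.15 ± 0.29 in Eed-KO and 0.11 ± 0.34 in WT. Only 4 of the 6 Cyp2d22 probes were higher in Dnmt1-KO than in WT, whereas all 6 Cyp2s1 probes were. The highest family 2 member in WT was Cyp2j13 at 0.38, and the lowest of all members in WT were Cyp2b9 at -0.54, Cyp2b10 at -0.31 and Cyp2c66 at -0.31.

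Several subfamilies of family 2 form gene clusters. The 8 Cyp2c promoters had medians of -0.25 in Eed-KO, -0.36 in Dnmt1-KO and -0.09 in WT, and the 3 Cyp2b promoters, which include the phenobarbital-induced Cyp2b10, had -0.26 in Eed-KO, -0.01 in Dnmt1-KO and -0.31 in WT. The 5 Cyp2j promoters, of arachidonic acid epoxygenases, had 0.02 in Eed-KO, -0.09 in Dnmt1-KO and 0.25 in WT. All 5 were lower in Eed-KO than in WT, where 40.7% of all promoters were above WT. Within 5 Mb on either side of them, the median Eed-KO difference in the IP/input ratio ran from -0.064 to -0.054. The part of this regional value in the 5 results was not tested. Among them the Cyp2j11 run was lower in Eed-KO in 6 of 6 probes, with a difference of -0.37 ± 0.09, and the Cyp2j5 run likewise, with -0.33 ± 0.12. The Cyp2j11 run lies far upstream of the start. Within 1 kb of the start Cyp2j11 was not lower in Eed-KO, averaging -0.20 there and -0.23 in WT. Cyp2j5 was lower there too, averaging -0.24 in Eed-KO and 0.06 in WT. The 5 Cyp2d promoters had medians of -0.03 in Eed-KO, -0.33 in Dnmt1-KO and 0.04 in WT. In Dnmt1-KO, Cyp2d9 and Cyp2j5 were lower than in WT in 6 of 6 probes, with differences of -0.69 ± 0.21 and -0.66 ± 0.19. None of these 3 genes was bound in any genotype. Members of these clusters are near-copies of each other, so their probes can share DNA, and the clusters are not independent observations.

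Family 3, the main drug-oxidising family of liver and gut, had 2 promoters with a run, and neither was bound. The share of all promoters bound was 5.76% in Eed-KO, 46.0% in Dnmt1-KO and 5.15% in WT, and 2 promoters are too few to set apart from it. Cyp3a11 had 0.02 in Eed-KO, -0.31 in Dnmt1-KO and 0.01 in WT. Cyp3a13 had -0.35 in Eed-KO, -0.44 in Dnmt1-KO and -0.02 in WT. Its run was lower in Eed-KO than in WT in 6 of 6 probes, with a difference of -0.33 ± 0.10. That run lies far upstream of the start. Within 1 kb of the start the Cyp3a13 probes went the other way, averaging -0.11 in Eed-KO and -0.28 in WT.
In family 4, of fatty acid hydroxylases, Cyp4v3 stood apart from the other 8 in WT, with 0.69 ± 0.47 in Eed-KO, 1.41 ± 0.89 in Dnmt1-KO and 0.93 ± 0.25 in WT. The lowest family 4 member in WT was Cyp4f16, at -0.16 in Eed-KO, -0.17 in Dnmt1-KO and -0.30 in WT. Cyp20a1, a P450 with no assigned substrate, had 0.31 in Eed-KO, 0.39 in Dnmt1-KO and 0.27 in WT.

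In Eed-KO no P450 promoter differed from WT by the called size. Of 56 members, 0 were higher in Eed-KO by at least 1 and 0 were lower, against 0.00612% and 0% of all promoters. On the common scale the counts were 0 higher (0.0184%) and 0 lower (0.0674%). At a difference of 0.5 the 1 member called was Cyp1b1, which was higher, against 0.306% of all promoters, and 0 were lower, against 0.141%. The median difference was -0.04 for the members and -0.04 for all promoters, and 25 of 56 members (44.6%) were above WT by any amount, against 40.7%, or 26 of 56 on the common scale, against 35.6%. These values were close to those of all promoters.

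In Dnmt1-KO the members' share of higher calls and their median difference were below those of all promoters. Of 56 members, 3 were higher in Dnmt1-KO by at least 1 (5.36%, against 24.9% of all promoters), namely Cyp1b1, Cyp46a1 and Cyp2d22, and 0 were lower, against 0.0184%. At a difference of 0.5, 7 were higher, against 43.3%, and 0 were lower, against 0.0674%. The median difference was 0.095 for the members and 0.61 for all promoters. By any amount, 35 of 56 members (62.5%) were above WT, against 83.9%. On the common scale 0 members were higher by at least 1, against 1.18%, the median difference was -0.04 for the members and 0.14 for all promoters, and 25 of 56 (44.6%) were above WT, against 65.4%. With the trend on probe GC content also removed, the medians were -0.04 for the members and 0.09 for all promoters. Within CpG classes the members' median difference was 0.48 for the 11 CpG-rich runs, against 0.85 for all promoters of that class, and 0.03 for the 45 others, against 0.30. In the IP channel of Dnmt1-KO, 290 of the members' 336 run probes were flagged well above background, against 336 of 336 in Eed-KO and 336 of 336 in WT. In Dnmt1-KO 23 of the 56 runs had at least 1 probe that was not. Of all probes on the 2 Dnmt1-KO arrays, 85.7% and 83.2% were flagged, against at least 99.89% on the others. The flag used a multiplier of 13 for Dnmt1-KO and 2.6 for the others, so these shares are not like for like. The 2 knockout comparisons share the WT arrays.

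**Figure D4:**
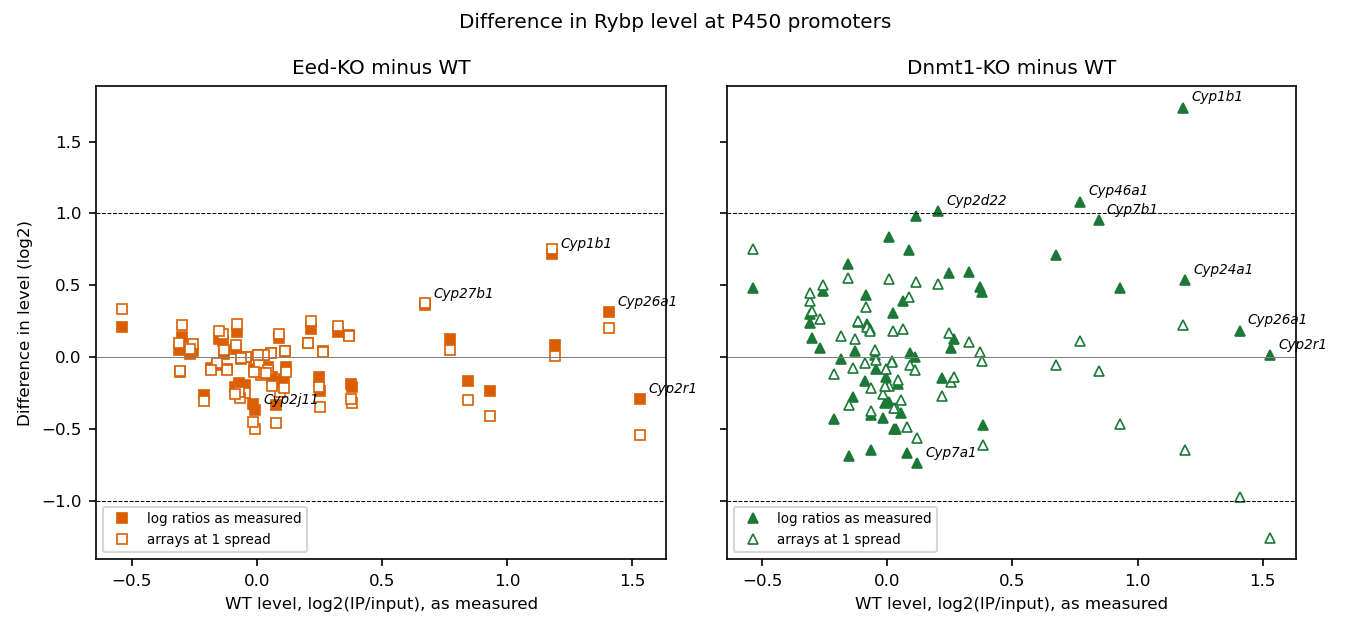
Difference in Rybp level from WT (log2) against the WT level for the 56 P450 promoters, in Eed-KO and in Dnmt1-KO; filled symbols are log ratios as measured, open symbols have the arrays at 1 common spread, and dashed lines mark differences of 1 in size. In Eed-KO no promoter passes 1, and in Dnmt1-KO the 3 that pass as measured fall inside the lines on the common scale while Cyp2r1 passes -1.

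Genes that work with the P450s were not set apart from promoters in general by their counts. Over 6 lists of retinoid, vitamin D, Ah receptor, electron donor, steroid synthesis and bile acid or xenobiotic genes, 49 of 54 genes had a run, and 3 were bound in Eed-KO (5.76% of all promoters), 26 in Dnmt1-KO (46.0%) and 1 in WT (5.15%). The 3 were Crabp1, a retinoic acid binding protein, with 1.39 in Eed-KO, 1.67 in Dnmt1-KO and 1.11 in WT, Lrat, which stores retinol as esters, and Srd5a2, a steroid reductase. Lrat had 1.27 in Eed-KO, 1.74 in Dnmt1-KO and 0.99 in WT, and Srd5a2 had 1.04 in Eed-KO, 1.22 in Dnmt1-KO and 0.88 in WT. By at least 1, 0 of the 49 were higher or lower in Eed-KO, and 12 were higher (24.5%, against 24.9% of all promoters) and 0 lower in Dnmt1-KO. The highest of the other lists in WT were Cyb5b, an electron carrier, at 0.92, the Ah receptor gene Ahr at 0.77, the vitamin D receptor gene Vdr at 0.55 and the bile acid receptor gene Nr1h4 at 0.29.

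The 11 members without a run are Cyp2a12, Cyp2a5, Cyp2c38, Cyp2c50, Cyp2c54, Cyp3a16, Cyp3a25, Cyp3a41, Cyp3a44, Cyp4a10 and Cyp4a12, all of families 2, 3 and 4. The mean over all their probes ran from -0.60 to 0.31 in Eed-KO, from -0.93 to -0.08 in Dnmt1-KO and from -0.49 to 0.03 in WT. The highest of these means was 0.31, for Cyp3a44 in Eed-KO.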

How the data were processed

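Rybp ChIP-chip intensities of 6 arrays were used, 2 array designs for each of 3 genotypes. Per the file headers, the deposited values are background-subtracted, dye-normalised red and green intensity from Agilent Feature Extraction, version 9.5.3.1 for Eed-KO and WT (scanner G2505B) and 10.1.1.1 for Dnmt1-KO (scanner G2505C); the submitters' processing notes list 9.5.3.1. The value table deposited by the authors holds log10 ratios, which differed from the scanner log ratios by 1 constant per array within 0.005 (log2) for at least 99.02% of probes. Steps before that are not given in the sources used here.

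Log2 of red over green was centred on the median of non-control probes, outlier spots were left out and saturated ones kept. Runs, thresholds and named genes followed the rules given in the report, and gene symbols and distances come from the Dnmt1-KO files. The text names every member bound in Eed-KO or WT, the 8 highest in Dnmt1-KO, the 3 lowest in WT, the 3 lowest and 3 highest differences per knockout with all 6 probes in 1 direction, every member of the named role groups, and the highest and lowest WT member of each remaining group; Cyp2d22 was added as a called member. The P450 members, the role groups and the 6 pathway lists were chosen with earlier results of these data known. RefSeq symbols and promoter sequences (GRCm38.p6) were used for names and bases only. The window rule was tested on simulated data. Python 3.11.15, pandas 2.3.3, numpy 2.4.6, statsmodels 0.14.6, R 4.3.3 and limma 3.58.1 were used. With 1 array per genotype and promoter the number of arrays limits the precision, and no test was made. There were 13 alternatives.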

Additional observations from a re-analysis of the deposited data

How the results depend on the processing

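No paired analysis was possible because each promoter has 1 array per genotype and the 2 arrays of a genotype hold different probes, and the slide could not be fitted as a block. Counts within 1.5 times the reported ones are not listed. Brackets give the share of all promoters under the same setting. Normexp background correction gave 2 bound members in Eed-KO (3.54%), 2 in WT (2.5%) and 5 higher in Dnmt1-KO (25.3%). With the arrays at 1 spread and runs chosen anew, 5 were bound in Dnmt1-KO (19.9%) and 7 in WT (15.6%). In Dnmt1-KO 0 were then higher (0.876%) and 1 lower (0.686%). With the GC trend removed 3 were bound in Eed-KO (5.16%). With both, 3 were bound in Dnmt1-KO (11%) and 7 in WT (12.6%), and 0 were higher (0.547%) and 2 lower (0.836%) in Dnmt1-KO. A bound level of 1.5-fold gave 8 in Eed-KO (18.7%), 16 in Dnmt1-KO (65.5%) and 8 in WT (20.6%). A level of 3-fold gave 2 in Eed-KO (0.704%), 5 in Dnmt1-KO (20.7%) and 0 in WT (0.276%). A difference of 0.5 gave 1 higher in Eed-KO (0.306%) and 7 in Dnmt1-KO (43.3%). Runs of 4 probes, which 63 members had, gave 5 higher in Dnmt1-KO (32.6%). All probes within 1 kb of a start, for 64 members, gave 3 bound in Eed-KO (1.69%) and 2 in WT (1.45%).

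The members' median Dnmt1-KO difference (0.095) turned to -0.28 with runs chosen on Eed-KO and WT alone, -0.23 within 1 kb of a start, -0.06 at 1 spread and -0.12 with the GC trend also removed. The median over all promoters (0.609) fell as well, to 0.33, 0.395, 0.0726 and 0.0147 under the same settings in that order. The members' median Eed-KO difference (-0.04) ran from -0.05 to 0.04. Of the named genes, Cyp1b1 and Cyp26a1 in Eed-KO, Cyp1b1, Cyp46a1 and Cyp7b1 in Dnmt1-KO and Cyp2r1 in WT were bound under all 11 ways of computing the level, whereas the Cyp24a1 call in Eed-KO and WT and the Cyp27b1 call in Eed-KO were lost with normexp or with the GC trend removed, and the Cyp27b1 call also within 1 kb. The WT call of Cyp1b1 and the Eed-KO call of Cyp2r1 were lost with normexp and within 1 kb, and the WT call of Cyp26a1 within 1 kb. In Dnmt1-KO, at 1 spread, the calls of Cyp2r1, Cyp27b1, Cyp4v3, Cyp2s1 and Cyp2d22 were lost. With the GC trend also removed those of Cyp26a1 and Cyp24a1 were lost as well. Cyp27b1 was also lost within 1 kb. Cyp2s1, bound in 6 of the 11, was also lost with the GC trend removed, within 1 kb and with runs chosen on Eed-KO and WT alone. Cyp2d22 stood at 0.80 in Dnmt1-KO on the common scale and was not followed under all 11 ways. The cause was not tested. Of the values of single genes, 543 moved by less than 1 SD and 75 by more. The single array per genotype and promoter, the wider Dnmt1-KO log ratios and its other scan settings limit how firmly any Dnmt1-KO difference can be stated.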
